A study of Mus musculus with 9 samples.

Results

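The genes described here are 32 type I interferon-stimulated genes, a module listed by gene symbol and matched to the array rows by Entrez Gene number, out of 24570 genes with a name on the array. All 32 had a row and all 32 passed the level filter that left 17199 genes for testing. The samples were large intestine RNA of C57BL/6 mice that carried a doxycycline-inducible short hairpin and the reverse tetracycline transactivator (rtTA), and every group, control included, drank 1 mg/ml doxycycline with 5% sucrose for 14 days from 4 weeks of age. The control hairpin was FLuc.1309, directed at firefly luciferase, and the hairpins DHX9-1271 and DHX9-837 were directed at Dhx9, with 3 arrays per group. Neither the promoter of rtTA nor whether a group's 3 replicates were separate animals is stated in the sources used here, and the p-values therefore reflect sample-to-sample spread that may be technical. Each hairpin is 1 mouse genotype, so hairpin and mouse line cannot be told apart.

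Type I interferons are cytokines released when a cell detects foreign or misplaced nucleic acid. They bind the receptor IFNAR1/IFNAR2, whose kinases JAK1 and TYK2 lead to the complex ISGF3, built with STAT2 and IRF9, which binds the interferon-stimulated response element (ISRE) before its target genes. In intestinal epithelium type III interferons reach the same complex through IFNLR1 and IL10RB. The targets block virus entry, copying and translation, and many are present at a low level without infection. DHX9 is an RNA helicase that unwinds RNA and DNA duplexes and binds double-stranded RNA.

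Upstream sequence was at hand for 24 of the 32 genes, from RefSeq on GRCm38.p6. The core of the ISRE, a pair of GAAA blocks with any 2 bases between them (GAAANNGAAA, searched on both strands in the 250 bases before the start site), was present in 11 of these 24 genes, or 45.8%, against 936 of 27025 genes, or 3.46%, in the whole table. The stretches below are shown because they carry that shared feature in members of 6 different roles. They are written 5′ to 3′ on the strand of the gene, with the motif matches in capitals, and matches on the opposite strand read TTTC. Adjoining matches share a GAAA block, so a longer run of capitals can hold several. Stat2 lies at chr10:128270251-128270310 (plus strand), Isg15 at chr4:156200850-156200921 (minus), Ifit1 at chr19:34640760-34640838 (plus), Oas1a at chr5:120907526-120907570 (minus), Bst2 at chr8:71537562-71537627 (minus) and Rsad2 at chr12:26456538-26456597 (minus).
Stat2: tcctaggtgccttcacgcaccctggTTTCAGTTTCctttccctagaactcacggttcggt
Isg15: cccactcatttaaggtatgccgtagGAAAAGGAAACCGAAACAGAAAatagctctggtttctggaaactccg
Ifit1: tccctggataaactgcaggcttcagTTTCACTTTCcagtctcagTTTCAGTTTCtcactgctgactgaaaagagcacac
Oas1a: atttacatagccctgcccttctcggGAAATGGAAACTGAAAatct
Bst2: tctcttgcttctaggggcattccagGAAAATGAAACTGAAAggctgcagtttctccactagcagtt
Rsad2: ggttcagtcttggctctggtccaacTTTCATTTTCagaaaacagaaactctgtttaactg
Ifit3, Oas1g, Oas3, Trim30a and Cxcl10 also held the motif. A match is a description of the letters and no measure of binding.

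Levels are log2 values after robust multi-array averaging (RMA), and differences are differences of these values, so 1 unit is a doubling. Dhx9 itself was 9.24 ± 0.072 (SD, n = 3) in control, 8.22 ± 0.044 (n = 3) under DHX9-1271 and 8.20 ± 0.017 (n = 3) under DHX9-837. It fell by 1.01 under DHX9-1271 (limma adjusted p = 5.01e-05) and by 1.03 under DHX9-837 (adjusted p = 2.09e-05), and the 6 knockdown arrays against the 3 control arrays gave an exact permutation p of 0.0119, two-sided. The hairpins differed by -0.02 in Dhx9 (95% interval -0.14 to 0.093, adjusted p = 0.907). The array medians lay between 6.24 and 6.28. The mean over 10 markers of large-intestine epithelium was 11.66 to 11.70 in control, 11.64 to 11.66 under DHX9-1271 and 11.47 to 11.56 under DHX9-837. Genes were called at an adjusted p under 0.05 over all 17199 genes.

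Array by array, the 32 genes averaged above the control mean in each DHX9-1271 array and below it in DHX9-837 replicates 1 and 2. The controls, which lie on both sides of their own mean by construction, ranged from -0.20 to 0.10. The mean deviation of the 32 genes from their own control means was 0.32, 0.20 and 0.26 in the DHX9-1271 arrays, and 30, 27 and 29 of the genes lay above their control mean there. In the DHX9-837 arrays the mean deviation was -0.15, -0.26 and 0.066, with 10, 7 and 18 genes above. The control arrays gave 0.098, -0.20 and 0.10, with 28, 3 and 28 genes above. Control replicate 2 was the lowest control for 28 of the 32 genes, against 36.2% of all genes tested, and it lay within the range of the DHX9-837 arrays on this measure. DHX9-837 replicate 3 was the highest array of its group for 29 of the 32. DHX9-837 replicate 2 was the lowest for 24, against 26.6% of all genes tested.

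**Figure D1:**
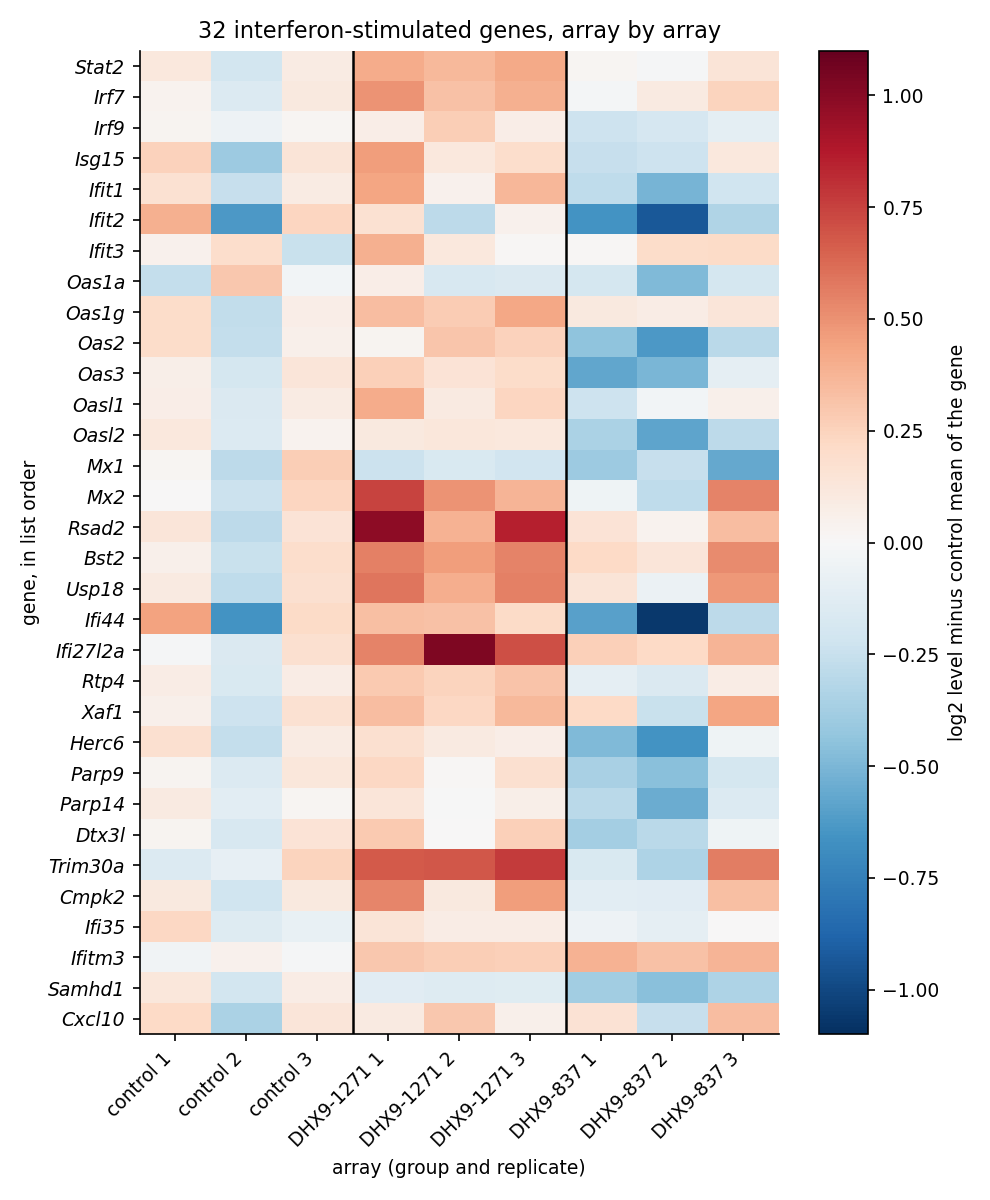
Level of each of the 32 genes (rows) in each of the 9 arrays (columns) as log2 difference from the control mean of that gene, with the scale in the colour bar. Most rows are above 0 in the 3 DHX9-1271 arrays, and control replicate 2 and DHX9-837 replicates 1 and 2 hold most of the values below 0.

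**Figure D2:**
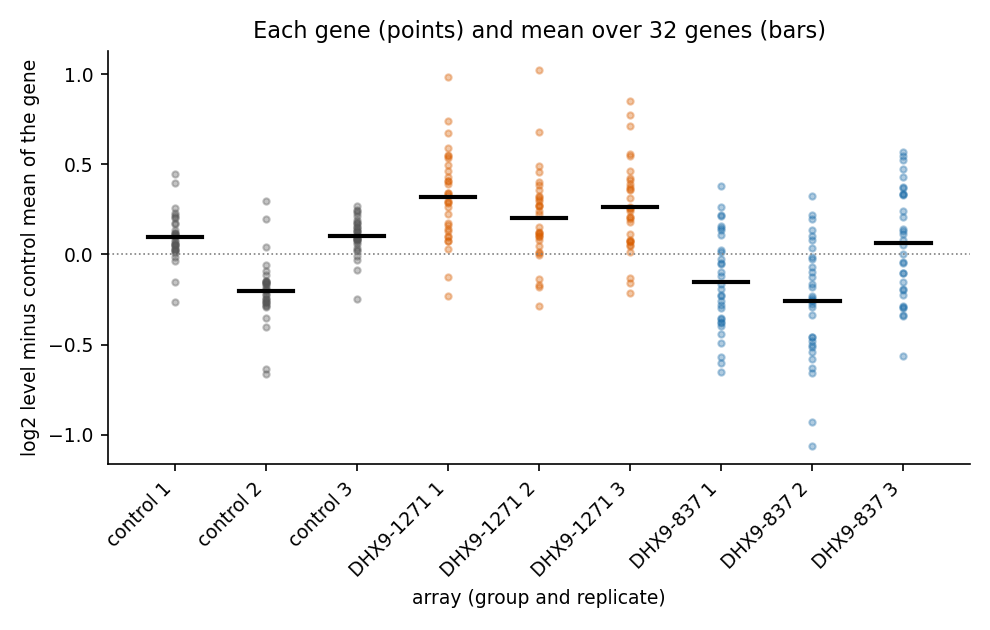
Log2 level minus the control mean of the same gene, for each of 32 genes (points) in each array (x axis, group and replicate number), with the mean over the genes as a bar. The DHX9-1271 bars are at 0.32, 0.20 and 0.26, above all 3 control bars (0.098, -0.20 and 0.10), and the DHX9-837 bars are at -0.15, -0.26 and 0.066.

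The replicates of the 32 genes lay farther apart than those of the median gene. Their median within-group SD was 0.181 against 0.0909 over all genes tested. By group it was 0.210 in control, 0.0950 under DHX9-1271 and 0.161 under DHX9-837, against 0.0894, 0.0623 and 0.0765 over all genes. The order of the group means was DHX9-1271, control, DHX9-837 from high to low for 14 genes and DHX9-1271, DHX9-837, control for 13. Ifit2, Mx1, Oas1a and Samhd1 had the order control, DHX9-1271, DHX9-837, and Ifitm3 alone was highest under DHX9-837. These orders include neighbours that differ by less than their spread.

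Under DHX9-1271, 5 of the 32 genes rose: Ifitm3, Ifi27l2a, Stat2, Irf7 and Rsad2. None of the 32 fell by limma, and at an unadjusted p under 0.05, 13 were higher and 0 lower. Of all genes tested, 2.87% were called higher and 1.6% lower. The log2 difference was above 0 for 28 of the 32, with a median of 0.25 against 0.0061 over all genes. For 15 genes all DHX9-1271 arrays lay above all controls and for 0 below, against 15.4% and 10.1% of all genes. The count of 5 was lower without any 1 array of the comparison. It was 1 without control replicate 1, 3 without control replicate 2, 2 without control replicate 3, and 1, 2 and 0 without DHX9-1271 replicates 1, 2 and 3. It was 3 without DHX9-837 replicate 1 and 2 without DHX9-837 replicate 2, arrays that enter through the shared estimate of spread. Over all genes, 493 were called higher in the full fit, and 221, 440 and 365 without control replicates 1, 2 and 3. They numbered 196, 135 and 89 without DHX9-1271 replicates 1, 2 and 3, and 347 and 342 without DHX9-837 replicates 1 and 2. Without control replicate 2 the median of the 32 was 0.13.

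Under DHX9-837, Ifitm3 rose and Samhd1, Oasl2, Parp9 and Oas2 fell, and the other 27 genes were not called. Of all genes tested, 8.79% were called higher and 7.03% lower. At an unadjusted p under 0.05, 3 of the 32 were higher and 12 lower. The log2 difference was above 0 for 14 and below 0 for 18, with a median of -0.063 against -0.0012 over all genes. All DHX9-837 arrays lay above all controls for 2 genes, Ifitm3 and Ifi27l2a, and below for 6, namely Irf9, Oas2, Oasl2, Parp9, Parp14 and Samhd1. The shares over all genes were 17.2% and 14.4%. The count of falls was 10 without control replicate 2 and 1 without control replicate 1 or control replicate 3. It was 2 without DHX9-1271 replicate 1 or 3, or without DHX9-837 replicate 1 or 2. Over all genes, 1209 were called lower in the full fit, and 890, 1236 and 867 without control replicates 1, 2 and 3. They numbered 1001 and 938 without DHX9-1271 replicates 1 and 3, and 806 and 965 without DHX9-837 replicates 1 and 2. The median of the 32 was -0.025 without control replicate 1, -0.14 without control replicate 2, -0.037 without control replicate 3 and -0.18 without DHX9-837 replicate 3.

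With both hairpins averaged, Ifitm3, Ifi27l2a and Bst2 rose and Samhd1 fell. Of all genes tested, 8.2% were called higher and 5.43% lower. Of the 32, 8 were higher and 2 lower at an unadjusted p under 0.05, and 18 had a difference above 0. The median was 0.080 against 0.0013 over all genes, and it was -0.04 without control replicate 2, 0.15 without control replicate 1, 0.035 without DHX9-1271 replicate 1 and 0.031 without DHX9-837 replicate 3. All 6 knockdown arrays lay above all controls for 2 of the 32 genes and below for 0, against 10.8% and 6.8% of all genes. The count of rises was 1 without control replicate 1 or control replicate 2. Over all genes, 1410 were called higher in the full fit, and 814 and 1203 in those fits. Samhd1 was called here in the fit of all arrays and without control replicate 2, and leaving out any other single array ended its call. The 3 comparisons with control share the control arrays.

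The comparison of the hairpins with each other does not use the control arrays except through the shared spread. DHX9-837 was below DHX9-1271 for 31 of the 32 genes, with Ifitm3 the exception, and the median difference, DHX9-837 minus DHX9-1271, was -0.34 against -0.0041 over all genes. Oasl2, Parp9 and Oas2 were called lower. None was called higher by limma, and at an unadjusted p under 0.05, 0 were higher and 20 lower. Of all genes tested, 0.698% were called higher and 1.21% lower. For 24 of the 32 genes every DHX9-837 array lay below every DHX9-1271 array, and for 1 above, against 12.6% and 9.41% of all genes. The 7 that overlapped were Ifit3, Mx2, Bst2, Usp18, Xaf1, Cmpk2 and Cxcl10. The count of 3 was 9 without control replicate 2, 2 without control replicate 1 and 0 without control replicate 3, any of the DHX9-1271 arrays, or DHX9-837 replicate 1 or 2. Over all genes, 208 were called lower in the full fit, and 194, 247 and 132 without control replicates 1, 2 and 3. They numbered 42, 53 and 23 without DHX9-1271 replicates 1, 2 and 3, and 36 and 88 without DHX9-837 replicates 1 and 2. Without DHX9-837 replicate 3, the highest of its group, the median difference of the 32 was -0.48.

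**Figure D3:**
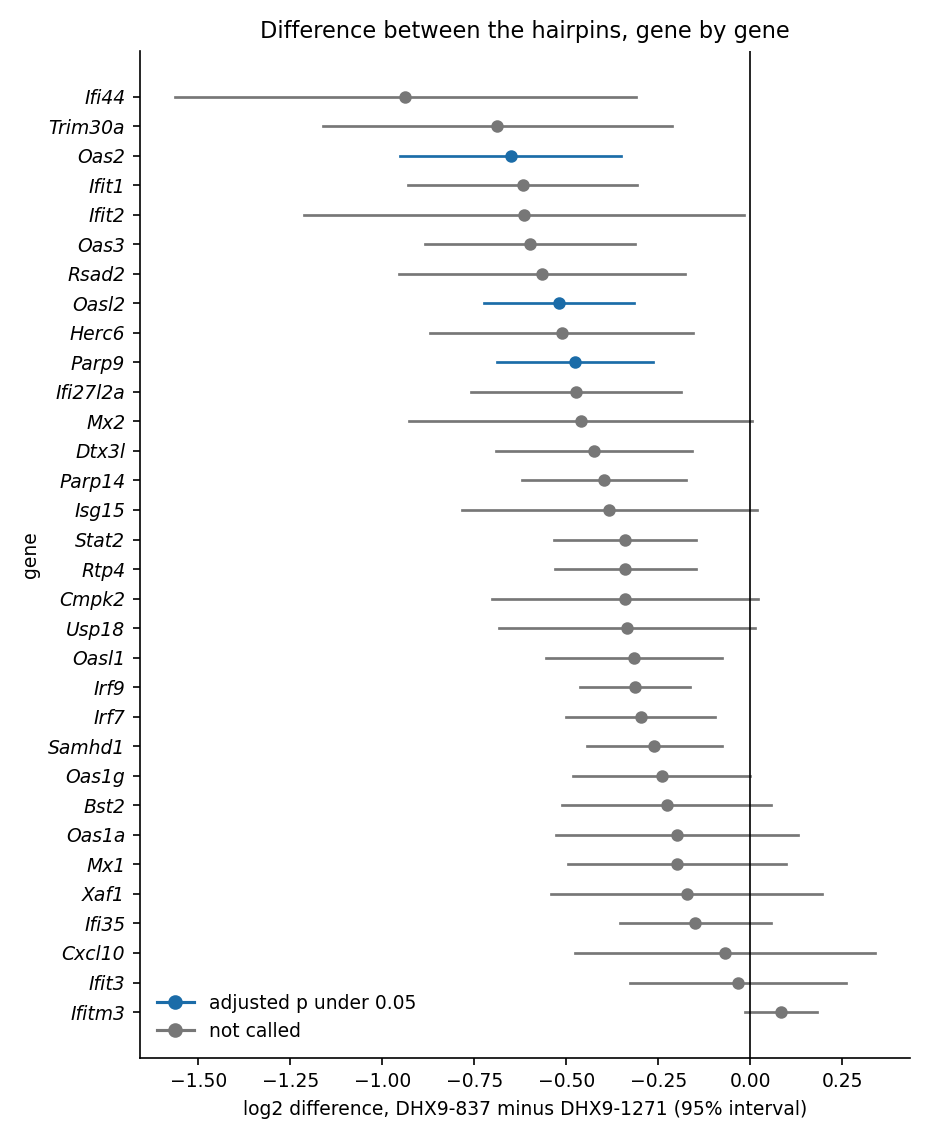
Log2 difference DHX9-837 minus DHX9-1271 (x axis) with its 95% interval for each of the 32 genes (y axis), called genes in blue. All points but Ifitm3 are below 0, and Oasl2, Parp9 and Oas2 are the called ones.

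Among the transcription factors, STAT2 carries the activating domain of ISGF3, IRF9 is the part of ISGF3 that recognises the ISRE, and IRF7 drives interferon-alpha genes and is itself induced. Stat2 was 8.98, 8.67 and 8.96 in control, 9.28, 9.23 and 9.29 under DHX9-1271 and 8.90, 8.86 and 9.01 under DHX9-837. The DHX9-1271 arrays lay above all others, and the DHX9-837 arrays overlapped the controls. Stat2 rose by 0.39 under DHX9-1271 (SE 0.084, adjusted p = 0.0387), with 0.05 under DHX9-837 (SE 0.084, adjusted p = 0.734). Irf7 was 10.89, 10.70 and 10.96 in control, 11.35, 11.17 and 11.24 under DHX9-1271 and 10.83, 10.95 and 11.09 under DHX9-837. Again the DHX9-1271 arrays stood above the other 6. Irf7 rose by 0.40 under DHX9-1271 (SE 0.089, adjusted p = 0.0422), with 0.11 under DHX9-837 (SE 0.089, adjusted p = 0.477). Irf9 was 8.48, 8.39 and 8.48 in control, 8.53, 8.72 and 8.53 under DHX9-1271 and 8.22, 8.27 and 8.35 under DHX9-837. The 3 groups of Irf9 did not overlap, yet no comparison was called, and the hairpins differed by -0.31 (adjusted p = 0.0539).

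The ISG15 system consists of the ubiquitin-like protein ISG15, the ligase HERC6 that attaches it in mice, and USP18, which removes it and also damps receptor signalling. None of these genes was called in any comparison. Isg15 was 8.34, 7.69 and 8.23 in control, 8.55, 8.21 and 8.28 under DHX9-1271 and 7.83, 7.86 and 8.20 under DHX9-837. Herc6 was 9.09, 8.65 and 9.01 in control, 9.09, 9.01 and 8.99 under DHX9-1271 and 8.43, 8.26 and 8.87 under DHX9-837. For both genes the 2 hairpin groups did not overlap, and control replicate 2 was well below the other controls. Usp18 was 8.32, 7.94 and 8.40 in control, 8.81, 8.62 and 8.77 under DHX9-1271, above all controls, and 8.35, 8.15 and 8.69 under DHX9-837.

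IFIT proteins bind viral RNA and hinder its translation. Ifit1 was 10.21, 9.79 and 10.13 in control, 10.47, 10.09 and 10.41 under DHX9-1271 and 9.76, 9.53 and 9.82 under DHX9-837. The hairpin groups did not overlap, while each overlapped the controls, and the difference between hairpins was -0.62 (SE 0.137, adjusted p = 0.0619). Ifit2 was 6.84, 5.81 and 6.68 in control, 6.61, 6.16 and 6.49 under DHX9-1271 and 5.79, 5.51 and 6.11 under DHX9-837. Control replicate 2 of Ifit2 lay among the DHX9-837 arrays. Ifit3 was 6.70, 6.84 and 6.40 in control, 7.04, 6.77 and 6.66 under DHX9-1271 and 6.66, 6.85 and 6.86 under DHX9-837, and all 3 groups overlapped. Ifit3 has a near-identical copy, Ifit3b, and which of the pair its probes read is not given, so its values are uncertain. None of the 3 genes was called.

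In the OAS family, 2 of the 6 genes fell under DHX9-837, where 7.03% of all genes tested were called lower. Most members make 2′-5′ oligoadenylate, the activator of RNase L, when they bind double-stranded RNA, and OASL1 and OASL2 are the OAS-like members. Oas2 was 9.27, 8.80 and 9.12 in control, 9.10, 9.37 and 9.31 under DHX9-1271 and 8.62, 8.44 and 8.77 under DHX9-837, so that the DHX9-837 arrays lay below all others. Oas2 fell by 0.46 under DHX9-837 (SE 0.132, adjusted p = 0.0486), and the hairpins differed by -0.65 (SE 0.132, adjusted p = 0.0485), with 0.20 under DHX9-1271 (adjusted p = 0.436). Both calls were close to the threshold. Oasl2 was 10.78, 10.50 and 10.69 in control, 10.76, 10.78 and 10.77 under DHX9-1271 and 10.31, 10.08 and 10.37 under DHX9-837. The DHX9-1271 arrays sat within or at the top of the control range and the DHX9-837 arrays below it. Oasl2 fell by 0.41 under DHX9-837 (SE 0.0897, adjusted p = 0.0168) and differed between hairpins by -0.52 (SE 0.0897, adjusted p = 0.0295), with 0.11 under DHX9-1271 (adjusted p = 0.509).

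The other 4 OAS genes were not called. Oas3 was 8.84, 8.59 and 8.91 in control, 9.04, 8.93 and 8.99 under DHX9-1271 and 8.21, 8.28 and 8.68 under DHX9-837, and the hairpins differed by -0.60 (adjusted p = 0.0539). Oasl1 was 9.33, 9.10 and 9.35 in control, 9.67, 9.37 and 9.50 under DHX9-1271 and 9.04, 9.24 and 9.32 under DHX9-837. In Oas3 and Oasl1 the DHX9-1271 arrays lay above all other arrays. Oas1g was 9.66, 9.20 and 9.53 in control, 9.81, 9.74 and 9.89 under DHX9-1271 and 9.58, 9.54 and 9.60 under DHX9-837. Oas1a was 8.14, 8.71 and 8.37 in control, 8.48, 8.23 and 8.25 under DHX9-1271 and 8.22, 7.92 and 8.22 under DHX9-837. Control replicate 2 was the lowest control for Oas1g and the highest for Oas1a. The mouse Oas1 genes are near-identical copies, so how their probes divide the signal is uncertain.

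MX proteins are large GTPases that trap viral components, and the Mx1 allele of most laboratory strains, C57BL/6 included, makes no working protein. Mx1 was 6.23, 5.92 and 6.47 in control, 5.97, 6.04 and 5.99 under DHX9-1271 and 5.81, 5.95 and 5.64 under DHX9-837. Mx2 was 6.13, 5.89 and 6.36 in control, 6.87, 6.62 and 6.50 under DHX9-1271 and 6.08, 5.85 and 6.67 under DHX9-837. The DHX9-1271 arrays lay above all controls for Mx2 and inside the control range for Mx1. The differences under DHX9-1271 were -0.20 for Mx1 (adjusted p = 0.409) and 0.53 for Mx2 (adjusted p = 0.186), and neither gene was called.

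Among genes that act at membranes, IFITM3 blocks the fusion of virus in endosomes and BST2 (tetherin) holds budding virus at the cell surface. Ifitm3 was 9.69, 9.77 and 9.72 in control, 10.02, 9.995 and 9.99 under DHX9-1271 and 10.11, 10.05 and 10.10 under DHX9-837. All 6 knockdown arrays lay above all controls, and the replicates were tight. Ifitm3 rose by 0.28 under DHX9-1271 (SE 0.043, adjusted p = 0.0128) and by 0.36 under DHX9-837 (SE 0.043, adjusted p = 0.00111), and the hairpins differed by 0.08 (95% interval -0.015 to 0.18, adjusted p = 0.438). The rise under DHX9-1271 was not called without any 1 of the DHX9-1271 arrays, at an adjusted p of up to 0.0576. Bst2 was 9.23, 8.93 and 9.37 in control, 9.73, 9.63 and 9.72 under DHX9-1271 and 9.39, 9.31 and 9.70 under DHX9-837. The DHX9-1271 arrays lay above all controls, and DHX9-837 replicate 2 lay within their range. Bst2 rose by 0.40 with both hairpins averaged (SE 0.108, adjusted p = 0.0408), with 0.52 under DHX9-1271 (adjusted p = 0.0544) and 0.29 under DHX9-837 (adjusted p = 0.155).

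RSAD2 (viperin) makes a chain-terminating ribonucleotide, CMPK2 is a nucleotide kinase encoded beside it, and SAMHD1 breaks down deoxynucleotides. Rsad2 was 9.14, 8.71 and 9.15 in control, 9.98, 9.38 and 9.85 under DHX9-1271 and 9.15, 9.04 and 9.34 under DHX9-837. It rose by 0.74 under DHX9-1271 (SE 0.171, adjusted p = 0.0481), with 0.17 under DHX9-837 (SE 0.171, adjusted p = 0.55). Every DHX9-1271 array exceeded every other array. Cmpk2 was 8.52, 8.19 and 8.52 in control, 8.95, 8.52 and 8.87 under DHX9-1271 and 8.29, 8.28 and 8.74 under DHX9-837, and was not called. Samhd1 was 10.21, 9.89 and 10.17 in control, 9.96, 9.95 and 9.96 under DHX9-1271 and 9.71, 9.63 and 9.75 under DHX9-837. The DHX9-837 arrays lay below all 6 others, and the DHX9-1271 arrays within the control range. Samhd1 fell by 0.39 under DHX9-837 (SE 0.081, adjusted p = 0.0123) and by 0.26 with both hairpins averaged (SE 0.070, adjusted p = 0.0402), with -0.13 under DHX9-1271 (adjusted p = 0.389).

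PARP9 and DTX3L form a complex that joins ADP-ribosylation to ubiquitin ligation and supports interferon signalling, and PARP14 is a related ADP-ribosyltransferase. Parp9 was 8.61, 8.44 and 8.71 in control, 8.81, 8.60 and 8.76 under DHX9-1271 and 8.23, 8.13 and 8.39 under DHX9-837, the last below all others. Parp9 fell by 0.34 under DHX9-837 (SE 0.094, adjusted p = 0.0415) and differed between hairpins by -0.48 (SE 0.094, adjusted p = 0.0436), with 0.14 under DHX9-1271 (adjusted p = 0.436). Its neighbours were not called. Dtx3l was 10.19, 9.98 and 10.31 in control, 10.45, 10.17 and 10.43 under DHX9-1271 and 9.78, 9.87 and 10.12 under DHX9-837. Parp14 was 9.36, 9.15 and 9.29 in control, 9.40, 9.27 and 9.34 under DHX9-1271 and 8.97, 8.73 and 9.12 under DHX9-837, with a difference of -0.33 under DHX9-837 (adjusted p = 0.0529). For both genes the hairpin groups did not overlap.

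Of the remaining induced genes, Ifi27l2a encodes a small hydrophobic protein of the IFI27 family. It was 6.96, 6.81 and 7.15 in control, 7.52, 8.0 and 7.69 under DHX9-1271 and 7.24, 7.20 and 7.35 under DHX9-837. Its 3 groups did not overlap, with DHX9-837 between the others. Ifi27l2a rose by 0.76 under DHX9-1271 (SE 0.125, adjusted p = 0.0152), the largest difference among the 32 in that comparison, and by 0.52 with both hairpins averaged (SE 0.109, adjusted p = 0.0146). Under DHX9-837 the difference was 0.29 (adjusted p = 0.162). A near copy, Ifi27l2b, has its own row and fell by 0.38 under DHX9-837 (adjusted p = 0.0448), with 0.10 under DHX9-1271 (adjusted p = 0.655).

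Ifi44 was 9.62, 8.51 and 9.39 in control, 9.50, 9.49 and 9.38 under DHX9-1271 and 8.57, 8.11 and 8.88 under DHX9-837. The difference between hairpins, -0.94 (95% interval -1.56 to -0.31), was the largest in size among the 32 and was not called (adjusted p = 0.146), with a control SD of 0.584. Trim30a, a member of the tripartite motif family, was 6.94, 7.0 and 7.34 in control, 7.76, 7.77 and 7.86 under DHX9-1271 and 6.92, 6.75 and 7.66 under DHX9-837. DHX9-837 replicate 3 lay close to the DHX9-1271 arrays for Trim30a, and the difference under DHX9-1271 was 0.71 (SE 0.209, adjusted p = 0.098). Trim30a belongs to a cluster of similar genes, which makes its values uncertain.

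Rtp4, a chaperone of certain membrane receptors, was 8.58, 8.33 and 8.58 in control, 8.79, 8.74 and 8.81 under DHX9-1271 and 8.40, 8.34 and 8.58 under DHX9-837. Xaf1, a partner of the apoptosis inhibitor XIAP, was 8.21, 7.92 and 8.32 in control, 8.49, 8.38 and 8.51 under DHX9-1271 and 8.37, 7.91 and 8.58 under DHX9-837. For both the DHX9-1271 arrays lay above all controls without a call. Ifi35 was 8.82, 8.44 and 8.50 in control, 8.73, 8.67 and 8.67 under DHX9-1271 and 8.54, 8.49 and 8.59 under DHX9-837. Cxcl10, a chemokine that draws activated T cells and answers to interferon-gamma as well, was 6.56, 5.99 and 6.47 in control, 6.44, 6.64 and 6.40 under DHX9-1271 and 6.50, 6.09 and 6.68 under DHX9-837. For Cxcl10 the groups overlapped, with differences of 0.15 (95% interval -0.26 to 0.56) under DHX9-1271 and 0.08 (-0.33 to 0.49) under DHX9-837.

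**Figure D4:**
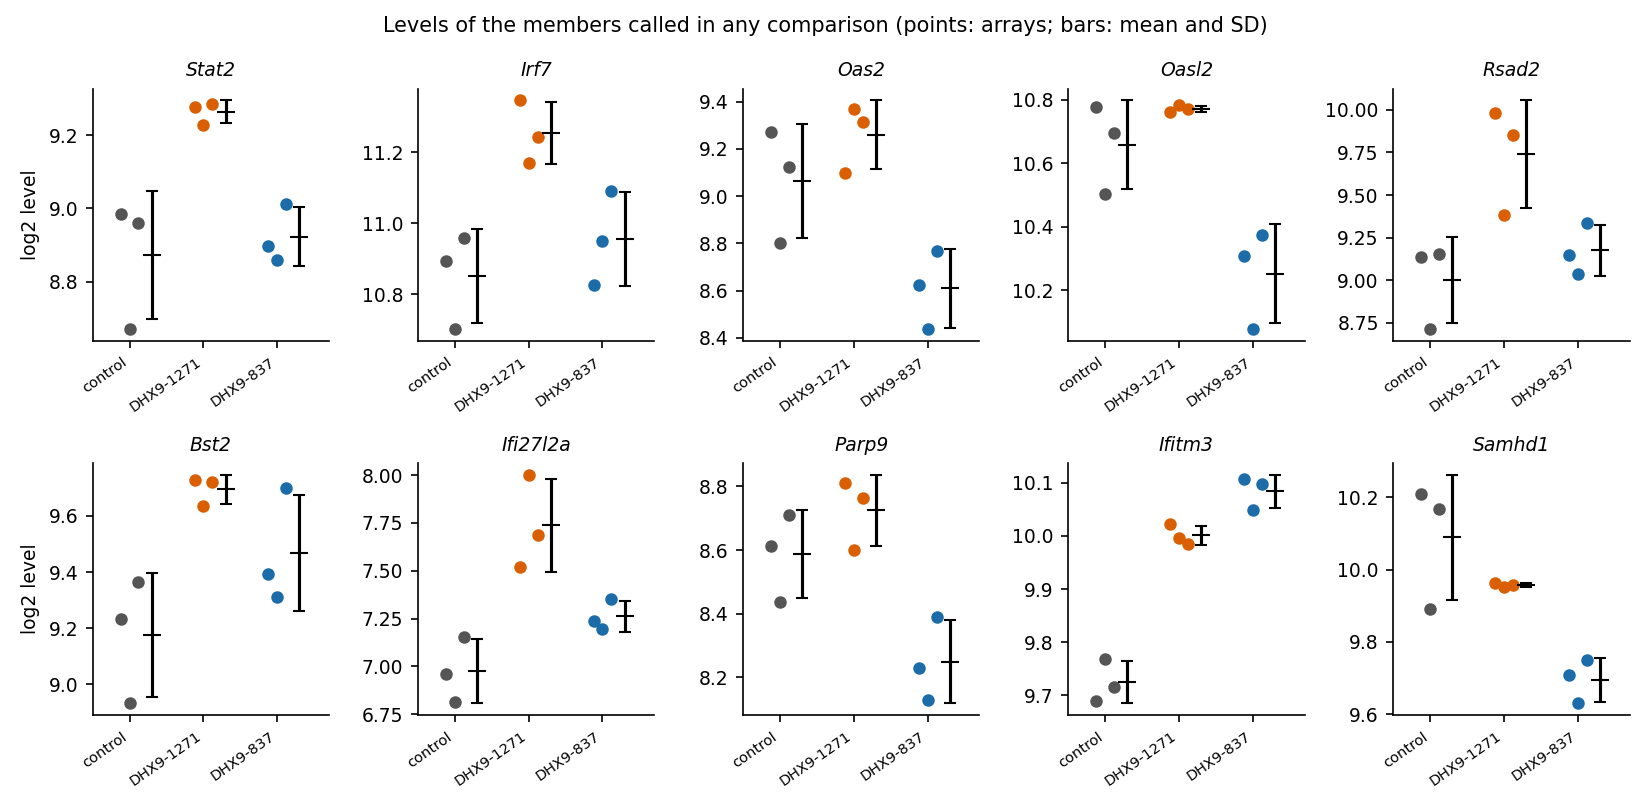
Log2 level in each array (points, y axis) by group (x axis) for the 10 genes called in any comparison, 1 panel a gene, with bars for the group mean and SD (n = 3). Ifitm3 is higher in both hairpin groups, Stat2, Irf7, Rsad2 and Ifi27l2a stand highest under DHX9-1271, and Oas2, Oasl2, Parp9 and Samhd1 are lowest under DHX9-837.

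Upstream of these targets, no interferon ligand gene was called. Of 21 ligand genes listed, 17 had a row, and 10 of these, Ifnb1 and Ifng among them, lay under the level filter of 5.29 on the mean over all arrays. Of the 7 tested, 1 was higher and 1 lower at an unadjusted p under 0.05 under DHX9-837, 0 and 0 under DHX9-1271 and in the comparison of the hairpins, and 1 and 0 with both hairpins averaged. Of 9 receptor and kinase genes, Ifnar1 rose by 0.27 under DHX9-1271 (adjusted p = 0.0447). Ifngr2 fell by 0.31 (adjusted p = 0.00572) and Il10rb by 0.20 (adjusted p = 0.0258) under DHX9-837. Of all genes tested, 2.87% were called higher and 1.6% lower under DHX9-1271, and 8.79% and 7.03% under DHX9-837. None of the 9 was called between hairpins, where 0 were higher and 1 lower at an unadjusted p under 0.05.

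Of 17 genes tested on the route that detects nucleic acid and makes interferon, none was called under DHX9-1271, where 2 were higher and 0 lower at an unadjusted p under 0.05. Under DHX9-837, 2 rose and 4 fell, where 8.79% of all genes were called higher and 7.03% lower. The rises were Tlr7 (0.44, adjusted p = 0.0476), an endosomal RNA receptor, and Sting1 (0.36, adjusted p = 0.0436), the adaptor for DNA detection. Zbp1, a Z-form nucleic acid sensor, fell by 0.73 (adjusted p = 0.0269), Dhx58 by 0.55 (adjusted p = 0.0236), the double-stranded RNA receptor Tlr3 by 0.38 (adjusted p = 0.00789) and Ifih1 by 0.29 (adjusted p = 0.0312). Zbp1, Dhx58 and Ifih1 are themselves interferon-induced. Between hairpins Tlr3 was lower under DHX9-837 by 0.40 on the log2 scale, a difference of -0.40 (adjusted p = 0.03), and the other 16 were not called. There 1.21% of all genes were called lower. Of 7 genes that restrain the pathway, Ptpn6 rose by 0.24 (adjusted p = 0.0277) and Irf2 fell by 0.23 (adjusted p = 0.0328) under DHX9-837. The same shares over all genes, 8.79% higher and 7.03% lower, stand beside these calls. None of the 7 was called under DHX9-1271 (1 higher and 0 lower at an unadjusted p under 0.05).

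A further list of 43 tested interferon-stimulated genes outside the 32 gave 5 rises and 1 fall under DHX9-1271 and 2 rises and 5 falls under DHX9-837, with medians of 0.10 and -0.091. Over all genes 2.87% and 1.6% were called higher and lower under DHX9-1271, and 8.79% and 7.03% under DHX9-837. Oas1b (0.59, adjusted p = 0.013), Lgals9 (0.40, adjusted p = 0.0199), Ly6e (0.28, adjusted p = 0.0199) and Apobec3 (0.24, adjusted p = 0.0442) rose under DHX9-1271. Tapbpl was the 1 fall under DHX9-1271 and was called lower with both hairpins averaged too. Under DHX9-837, Lgals9 and Ly6e rose as well, and Tapbpl fell by 0.56 (adjusted p = 0.000965), Uba7, the ISG15-activating enzyme, by 0.76 (adjusted p = 0.00103), Ifi47 by 0.96 (adjusted p = 0.013) and Ifit1bl1 by 0.66 (adjusted p = 0.0312). Between hairpins all 43 differences were below 0, with a median of -0.20. Uba7 and Helz2 were called lower, and for 23 of the 43 every DHX9-837 array lay below every DHX9-1271 array. Over all genes these shares were 1.21% and 12.6%.

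Genes driven mainly by interferon-gamma were counted apart. Of 22 tested, 2 fell and 0 rose under DHX9-1271, and 10 fell and 0 rose under DHX9-837, where the median was -0.39. Of all genes tested, 1.6% were called lower and 2.87% higher under DHX9-1271. Under DHX9-837 these shares were 7.03% and 8.79%, and the median over all genes was -0.0012. At an unadjusted p under 0.05, 2 were higher and 6 lower under DHX9-1271, and 1 higher and 14 lower under DHX9-837. Among all 17199 genes, 2143 were higher and 1394 lower at that limit under DHX9-1271, and 2813 and 2395 under DHX9-837. Between hairpins 19 of the 22 differences, DHX9-837 minus DHX9-1271, were below 0, with a median of -0.23. There H2-D1, a class I heavy chain, was called lower (-0.34, adjusted p = 0.0436), and 0 were higher and 15 lower at an unadjusted p under 0.05. Of all genes tested, 1.21% were called lower between hairpins. Under DHX9-837, Tapbp fell by 0.55 (adjusted p = 0.000409) and Tap2 by 0.55 (adjusted p = 0.000917), both of the peptide-loading machinery, Ido1 by 0.65 (adjusted p = 0.00238) and the factor Irf1 by 0.53 (adjusted p = 0.00241). Tapbp and Tap2 were the 2 falls under DHX9-1271, by 0.32 (adjusted p = 0.0145) and by 0.32 (adjusted p = 0.0271). The list mean was 8.29 to 8.56 in control, 8.34 to 8.44 under DHX9-1271 and 7.96 to 8.28 under DHX9-837.

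In bulk RNA, fewer cells of a type and less RNA per cell cannot be told apart, and several marker lists differed between the groups. Of all genes tested, 2.87% were called higher and 1.6% lower under DHX9-1271, and 8.79% and 7.03% under DHX9-837. Of the 10 large-intestine epithelial markers, Guca2a and Slc26a3 were called lower under both hairpins and Aqp8 under DHX9-837, and none was called higher. The mean of 11 macrophage and monocyte markers was 7.49 to 7.55 in control, 7.64 to 7.78 under DHX9-1271 and 7.81 to 7.82 under DHX9-837, with 2 and 6 genes called higher and 0 and 1 lower. For 12 B and plasma cell markers the mean was 7.84 to 7.93, 8.02 to 8.47 and 8.13 to 8.43, with 2 and 5 called higher and 0 lower. The 8 endothelial markers gave 7.50 to 7.57, 7.72 to 7.79 and 7.66 to 7.71, with 4 and 3 called higher. Plasmacytoid dendritic cells, strong producers of interferon, had a mean over 10 markers of 7.16 to 7.23, 7.29 to 7.34 and 7.21 to 7.42. Of these markers, none was called under DHX9-1271, and Ly6d was called higher and Klk1 lower under DHX9-837. Spib was called higher with both hairpins averaged. T and NK cell markers gave 6.56 to 6.71, 6.61 to 6.64 and 6.28 to 6.71. Cd4 was called higher under DHX9-837, where the other 10 of the 11 markers were below 0 without a call, and none was called under DHX9-1271. The 8 fibroblast markers gave 8.90 to 9.16, 9.26 to 9.35 and 9.21 to 9.34, with 2 and 4 called higher and 0 lower. The 8 smooth muscle markers gave 10.54 to 10.71, 10.63 to 10.76 and 10.38 to 10.59. Between the hairpins, the large-intestine epithelial markers Slc26a3 (-0.36, adjusted p = 0.0189) and Aqp8 (-0.67, adjusted p = 0.0341) were called lower. In that list 3 of the 10 differences were above 0 and 7 below. Klk1, listed among the plasmacytoid dendritic cell markers, was called lower too (-0.35, adjusted p = 0.0376). In that list 6 of the 10 were above 0 and 4 below (median 0.028), and which cells Klk1 was read from was not tested. Of all genes tested, 0.698% were called higher and 1.21% lower there. All 8 smooth muscle markers had a difference below 0 (median -0.21), with 6 not overlapping and 4 lower at an unadjusted p under 0.05, and none was called. For 12.6% of all genes every DHX9-837 array lay below every DHX9-1271 array, and for 9.41% above. In this way 6 macrophage markers lay above and 1 below, and 2 B cell markers above and 0 below. For fibroblasts 1 marker lay above and 3 below. For 4 large-intestine epithelial, 3 endothelial, 1 T and NK cell and 1 plasmacytoid dendritic cell marker the arrays lay below, and for 0 above. At an unadjusted p under 0.05, 4 macrophage markers were higher and 1 lower there, 2 B cell markers higher and 0 lower, 1 T and NK cell marker higher and 2 lower, 0 endothelial markers higher and 2 lower, and 0 fibroblast markers higher and 1 lower. The part of these cells in the levels of the 32 genes was not tested.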

How the data were processed

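Total RNA was hybridised to Affymetrix Mouse Gene ST 2.0 arrays, 9 in all. The authors deposited log2 levels made by RMA with oligo 1.30.0 in R 3.1.1, per the submitters' processing notes. The sources used here state neither the probe set definition nor the genome build. Quantile normalization would hide a shift shared by most genes. Of 24973 rows, 24015 were named by the platform table, whose row numbers are Entrez Gene numbers, 559 by the same number in RefSeq's gene table (among the 32 members, Ifi44), and 399 stayed unnamed. Genes under the 30th percentile of mean level (5.29) were left out (7371).

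Groups came from the sample titles. limma 3.58.1 (R 4.3.3) fitted group means over all 9 arrays with 4 contrasts; two-sided p-values were adjusted by Benjamini and Hochberg over 17199 genes and called under 0.05 with no fold limit. The fit was tested on simulated data. The members and lists were chosen with earlier results of these data known. All 32 members are reported; members called in any comparison are given with SE and adjusted p, and up to 4 called genes of smallest p were named per other list and comparison. Median polish can leave tied values, which 45.2% of genes and 3 members (Oas1a, Rtp4 and Cmpk2) had. Alternatives varied filter, scaling, moderation, weights, arrays and replicate block. The labels state no pairing of arrays by replicate number. Over all genes, deviations of same-numbered arrays correlated between -0.38 and 0.27, and those of differently numbered arrays between -0.45 and 0.40. With 3 arrays a group these values cannot decide whether the arrays were paired. Precision is limited by there being 3 arrays a group.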

Additional observations from a re-analysis of the deposited data

Results flagged for a closer look

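The effects of the hairpins differed, by the test of the difference itself, for 3 of the 32 genes. Of all genes tested, 1.21% were called lower and 0.698% higher in that comparison. The difference DHX9-837 minus DHX9-1271 was -0.65 for Oas2, -0.52 for Oasl2 and -0.48 for Parp9 (limma adjusted p 0.0485, 0.0295 and 0.0436). Each of the 3 fell under DHX9-837 and had a difference above 0 that was not called under DHX9-1271. Their calls were lost without control replicate 3, without any 1 of the DHX9-1271 arrays, and without DHX9-837 replicate 1 or 2. Over all genes, 208 were called lower in the full fit and 23 to 132 in those fits. Without DHX9-837 replicate 3 the calls of Oas2 and Parp9 were lost too, and that of Parp9 without control replicate 1. Over all alternatives the difference lay between -0.73 and -0.56 for Oas2, between -0.58 and -0.43 for Oasl2 and between -0.55 and -0.42 for Parp9. Groups of 3 arrays are too small for a check for single outlying samples.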

How the results depend on the processing

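No called value of the 32 genes changed sign under any alternative. The calls of Ifitm3 and Samhd1 under DHX9-837 held under 20 of 20 alternatives and that of Ifitm3 with both hairpins averaged under 19 of 19. Under DHX9-1271, Ifitm3 and Ifi27l2a held under 17 of 20, Stat2 under 11, Irf7 under 10 and Rsad2 under 9. Under DHX9-837, Oasl2 held under 17 of 20, Parp9 under 12 and Oas2 under 8, and with both hairpins averaged Ifi27l2a held under 17 of 19 and Bst2 and Samhd1 under 10 each. Between hairpins Oasl2 held under 13 of 20, Oas2 under 11 and Parp9 under 10. Rises under DHX9-1271 numbered 5, and 2 without the level filter, with a 1.5-fold limit, or with only the arrays compared. The rise under DHX9-837 numbered 0 with a 1.5-fold limit. Falls under DHX9-837 numbered 4, and 2 without the filter, 0 with a 1.5-fold limit and 1 with only the arrays compared. With both hairpins averaged there were 3 rises and 1 fall, and 0 and 0 with a 1.5-fold limit; the fall was lost without the filter (0). Genes lower under DHX9-837 than under DHX9-1271 numbered 3, and 0 without the filter, 6 with a filter at the median gene, 5 with cyclic loess, 6 with a variance trend, 12 with array weights and 1 with a 1.5-fold limit. Over all genes 208 were lower there, and 91 without the filter, 330 with the median filter and 228 with cyclic loess. The trend gave 357 and array weights 463. Without the filter, 259 of all genes rose under DHX9-1271, against 493, and 935 fell under DHX9-837, against 1209. With both hairpins averaged, 719 of all genes fell without the filter, against 934. With the replicate number as a block, falls of the 32 under DHX9-837 numbered 7 and rises with both hairpins averaged 5. The block gave 6 rises of the 32 under DHX9-1271 and 4 genes lower between hairpins (Ifit1, Oasl2, Rsad2 and Parp9), 2 of them shared with the fit without it. Over all genes the block gave 1047 falls under DHX9-837 and 1216 rises with both hairpins averaged, against 1209 and 1410 without it. It gave 271 rises under DHX9-1271 and 111 genes lower between hairpins, against 493 and 208. Under the block the calls of Oas2 under DHX9-837 (limma adjusted p = 0.0606) and between hairpins (0.0738) and of Irf7 under DHX9-1271 (0.0563) were lost. Over the 32 genes alone, same-numbered deviations correlated at 0.18, 0.40 and 0.46 between control and DHX9-837, at 0.065, 0.13 and 0.31 between control and DHX9-1271 and at -0.29, 0.041 and -0.0077 between the hairpins. Differently numbered ones correlated from -0.40 to 0.11, from -0.25 to 0.094 and from -0.17 to 0.23 in these pairs of groups. Replicate 2 had the lowest mean of the 32 in each group. With 3 arrays a group these values cannot decide on pairing either.

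Leaving out 1 array at a time gave 0 to 6 rises under DHX9-1271, 1 to 10 falls under DHX9-837, 1 to 3 rises and 0 to 3 falls with both hairpins averaged, and 0 to 9 genes lower between hairpins. Over all genes the counts were 89 to 440, 806 to 1236, 814 to 1203 and 608 to 953, and 23 to 247, in that order. The median over the 32 genes then ranged from 0.13 to 0.29, from -0.18 to -0.025, from -0.041 to 0.15 and from -0.48 to -0.30 in these comparisons. Other settings moved it less, for the hairpin difference from -0.40 to -0.32. The cause of these changes was not tested. Centring the arrays and cyclic loess moved the median of all genes by under 0.1. Using only the names of the platform table, an alternative chosen after seeing the data, left the counts of called members as they were.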

Other observations

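The mean of 10 small-intestine markers ranged widely within each group and was 6.16, 8.88 and 7.97 in control, 7.28, 6.04 and 7.07 under DHX9-1271 and 8.56, 6.41 and 9.60 under DHX9-837. All 10 had a difference below 0 under DHX9-1271 (median -0.87), with Alpi called, and all 10 were above 0 for DHX9-837 minus DHX9-1271 (median 1.37), with none called and 2 higher and 0 lower at an unadjusted p under 0.05. Under DHX9-837 against control, 8 of the 10 were above 0 and 2 below (median 0.63). Alpi, intestinal alkaline phosphatase, was the only one called there and fell under both hairpins. The highest marker mean of each group was in control replicate 2, DHX9-1271 replicate 1 and DHX9-837 replicate 3, where the 32 interferon-stimulated genes averaged -0.20, 0.32 and 0.066 from the control mean. The last 2 are the highest such averages of their groups and the first the lowest of its group. The part of the small-intestine markers in the levels of the 32 genes was not tested.

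Control replicate 2 was the lowest control for all of the 32 genes except Ifit3, Oas1a, Trim30a and Ifitm3. Uba7, which activates ISG15, differed by -0.25 under DHX9-1271 (limma adjusted p = 0.158) and fell by 0.76 under DHX9-837 (adjusted p = 0.00103), while Usp18, which removes ISG15, differed by 0.52 (adjusted p = 0.0997) and 0.18 (adjusted p = 0.474). Eif2ak2, the double-stranded RNA-activated kinase PKR, rose by 0.33 under DHX9-1271 (adjusted p = 0.0448), with 0.15 under DHX9-837 (adjusted p = 0.218).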
